A study of Mus musculus with 12 samples.

Results

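The genes followed mark surfactant and the alveolar type 2 cell: Sftpa1, Sftpb, Sftpc, Sftpd, Abca3, Lamp3, Napsa, Slc34a2, Etv5 and Lpcat1. They were taken by gene name from a table of 56748 genes, and all 10 members were found and passed the low-count filter that left 20229 genes to test. Whole-lung RNA was sequenced from mice with MMTV-PyMT, an oncogene transgene that gives mammary tumours which seed the lung, at 4.5 months of age. There were 4 libraries in each of 3 genotypes, and the series asks how conditional loss of C3 or S1pr1 bears on lung metastasis. The wild-type group (WT) is MMTV-Cre; MMTV-PyMT in the series text, while its strain label names only MMTV-PyMT. The C3 knockout (C3 KO) is MMTV-Cre;C3Tdt:MMTV-PyMT, and the S1pr1 knockout (S1pr1 KO) is MMTV-Cre;S1pr1fl/fl; MMTV-PyMT. The promoter that drives Cre is active mainly in mammary epithelium, and the labels do not say which lung cells recombined. Nor do they state that each library came from its own animal, so the p-values below reflect only the variation among these libraries.

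Surfactant is the film of lipid and protein that lowers surface tension in the alveoli and keeps them from collapsing. Alveolar type 2 cells make it, store it in lamellar bodies and secrete it, and alveolar macrophages clear part of it. The transcription factor NKX2-1 and forkhead factors of the FOXA group are textbook activators of surfactant protein genes in these cells.

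Promoter sequence was at hand for 7 of the 10 members in a RefSeq table on GRCm38.p6, a build other than that of the count table, with none for Sftpc, Sftpd and Napsa. Shown are the bases before the start site of Sftpb and Sftpa1, whose levels were correlated over libraries, of Lamp3, a lamellar body gene, and of Abca3, the member with the lowest p against WT. Each run is 250 bases, written from 5′ to 3′ on the gene's strand, and capitals mark the motifs searched on both strands.
Sftpb, chr6:72304360-72304609, plus strand: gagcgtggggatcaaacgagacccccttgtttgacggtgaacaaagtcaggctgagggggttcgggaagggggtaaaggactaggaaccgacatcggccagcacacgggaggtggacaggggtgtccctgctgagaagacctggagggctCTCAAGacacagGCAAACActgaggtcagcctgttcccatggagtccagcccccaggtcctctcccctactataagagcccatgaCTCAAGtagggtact
Sftpa1, chr14:41131538-41131787, plus strand: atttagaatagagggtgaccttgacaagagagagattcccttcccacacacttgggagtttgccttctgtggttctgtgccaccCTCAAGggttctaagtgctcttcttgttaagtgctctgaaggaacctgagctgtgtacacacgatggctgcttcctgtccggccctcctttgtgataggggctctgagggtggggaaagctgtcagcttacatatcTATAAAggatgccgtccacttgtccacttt
Lamp3, chr16:19706366-19706615, minus strand: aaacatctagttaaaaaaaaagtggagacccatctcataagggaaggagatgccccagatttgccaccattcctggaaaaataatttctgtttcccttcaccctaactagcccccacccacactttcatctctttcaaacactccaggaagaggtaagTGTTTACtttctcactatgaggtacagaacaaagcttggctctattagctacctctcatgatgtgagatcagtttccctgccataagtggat
Abca3, chr17:24351773-24352022, plus strand: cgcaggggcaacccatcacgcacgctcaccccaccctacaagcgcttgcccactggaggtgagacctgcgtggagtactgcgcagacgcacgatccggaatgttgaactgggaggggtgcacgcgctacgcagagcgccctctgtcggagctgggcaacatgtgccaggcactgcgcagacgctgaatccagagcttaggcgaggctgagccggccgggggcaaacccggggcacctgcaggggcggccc
The motifs were CTCAAG for NKX2-1, TGTTTAC and TGTTTGC for FOXA, CCGGAAG for ETS factors and TATAAA for a TATA box, and no marked match overlapped another. The Sftpb sequence held CTCAAG beginning 100 and 15 bases before the start, with a FOXA match on the reverse strand at 88 bases before it. Sftpa1 held 1 CTCAAG at 166 bases and TATAAA at 30 bases before its start. The FOXA letters stood 92 bases before the start of Lamp3, and Abca3 held none of the letters searched. Of the promoters not shown, those of Slc34a2 and Lpcat1 held none either. Etv5 had 2 start sites, with a reverse-strand FOXA match 183 bases before the first and no match before the second. Among 32851 promoters of 300 bases in the same table, 15.9% held the NKX2-1 letters, 8.48% a FOXA form, 8.86% the ETS form and 13.6% the TATA box. A match is a description of the letters in this window only.

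Levels between genes were compared as FPKM, the authors' values scaled to gene length and library size, as mean ± SD over 12 libraries. Sftpc, the hydrophobic surfactant protein made almost only by alveolar type 2 cells, stood at 10780 ± 1082 FPKM and ranked 2 among all genes of the table. Sftpb, the hydrophobic protein without which lamellar bodies do not mature, followed at 2100.1 ± 224 FPKM. Next came Sftpa1, a collectin that binds microbial sugars, at 1084 ± 238 FPKM. In all 12 libraries these 3 genes kept this order, each above the next.

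Slc34a2, the sodium and phosphate cotransporter of the apical membrane, was at 385 ± 45.7 FPKM, and Sftpd, the other surfactant collectin, at 288 ± 88.9 FPKM. Slc34a2 was above Sftpd in 11 of 12 libraries, and Sftpd above Lamp3 in all 12. Lamp3, a glycoprotein of the lamellar body membrane, was at 117 ± 14.5 FPKM, and Napsa, a protease that processes surfactant protein precursors, at 94.9 ± 8.43 FPKM. Lpcat1, the acyltransferase that makes the main surfactant phospholipid, was at 85.3 ± 9.94 FPKM. The order of these neighbours was loose, with Lamp3 above Napsa in 11 libraries and Napsa above Lpcat1 in 9. At the low end, Abca3, which pumps lipid into lamellar bodies, was at 48.0 ± 7.42 FPKM, and Etv5, an ETS transcription factor downstream of FGF signalling, at 42.9 ± 7.25 FPKM. Abca3 exceeded Etv5 in only 8 of 12 libraries, so these neighbours were not separated beyond their spread. The smallest count of any member in any library was 4887 reads, so counting error was small beside the spread between libraries.

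Across the whole series, total counts ran from 32274797 to 53063470 per library, and log2 CPM correlated between libraries at r from 0.963 to 0.988. CPM is the read count scaled to a common library total. The targeted genes did not follow every label. C3 had 475, 465 and 601 CPM in C3 KO 1 to 3 against 787 to 1025 CPM in WT, while the library labelled C3 KO 4 held 1416 CPM. S1pr1 had 132, 142 and 154 CPM in S1pr1 KO 1, 3 and 4 against 295 to 491 CPM in WT, while the library labelled S1pr1 KO 2 held 366 CPM. Where the sign of a member's difference turned on 1 of these libraries, the value without it is also given, here or in the closing section. Markers of other cells were present in all groups, and no marker list had a gene at 0 in every library. The 15 mammary epithelial genes listed, of which 13 were tested, summed to 147 to 245 CPM in WT. They summed to 159 to 270 CPM in C3 KO and 153 to 370 CPM in S1pr1 KO.

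**Figure D1:**
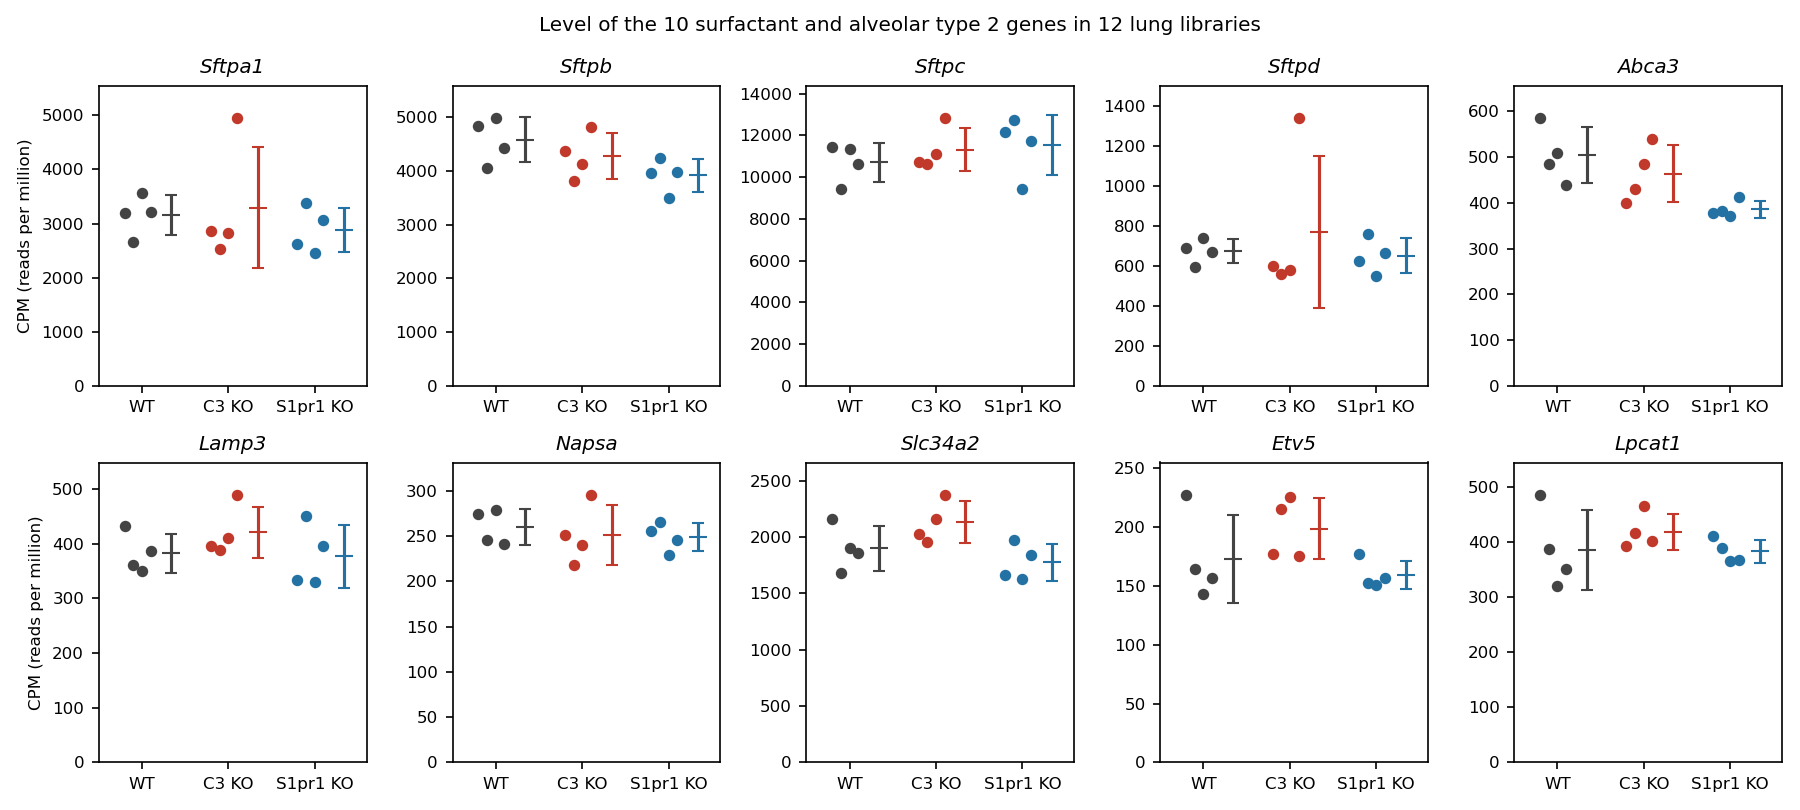
Level of each of the 10 genes in CPM (vertical axes, from 0) in the 4 libraries of each genotype. Points are libraries in replicate order, and the bar beside them is the mean ± SD. Sftpa1 and Sftpd each have 1 high C3 KO point, and the S1pr1 KO points of Abca3 all lie under the WT points.

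The members together took 2.27% of the scaled library in WT, 2.36% in C3 KO and 2.23% in S1pr1 KO. Their summed level was 22727 ± 1989 CPM in WT, 23552 ± 3170 CPM in C3 KO and 22316 ± 2386 CPM in S1pr1 KO (SD, n = 4 each). The group means differed by less than the spread between libraries. The other 3 C3 KO libraries averaged 21999.6 ± 788 CPM without the library labelled C3 KO 4, below the WT mean instead of above it, a setting chosen after seeing the data. Over whole lung, fewer alveolar type 2 cells and less RNA per cell cannot be told apart.

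In S1pr1 KO lungs the members had differences of both signs against WT. Abca3 had the lowest values relative to WT, Sftpb was next, and Sftpc had a positive difference. No member passed the edgeR quasi-likelihood test after Benjamini-Hochberg adjustment (adjusted p under 0.05), against 1.35% of all genes tested.

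Among the surfactant proteins, Sftpb (ENSMUSG00000056370, chr6:72281594-72291354, GRCm39) had WT values of 4848, 4062, 4986 and 4430 CPM. The S1pr1 KO libraries gave 3958, 4246, 3503 and 3977 CPM. The ranges overlapped only through WT 2 and the library labelled S1pr1 KO 2. The log2 difference was -0.22 (SE 0.094, 95% interval -0.43 to -0.02), with an unadjusted edgeR p of 0.0336 and an adjusted p of 0.232.

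Sftpc (ENSMUSG00000022097, chr14:70758389-70761521) reached 11424, 9411, 11356 and 10631 CPM in WT. Its S1pr1 KO values were 12177, 12762, 9448 and 11747 CPM. The library labelled S1pr1 KO 2 was the highest of these and S1pr1 KO 3 the lowest, and the groups overlapped. The log2 difference was 0.11 (SE 0.11, 95% interval -0.12 to 0.34, edgeR adjusted p = 0.652).

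The collectins overlapped as well. Sftpa1 had 3162 ± 374 CPM in WT and 2882 ± 415 CPM in S1pr1 KO, a log2 difference of -0.13 (edgeR adjusted p = 0.769). Sftpd had 674 ± 59.9 CPM in WT and 651 ± 87.5 CPM in S1pr1 KO, a log2 difference of -0.05 (edgeR adjusted p = 0.942).

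Abca3 (ENSMUSG00000024130, chr17:24570924-24629175), the lamellar body lipid pump, had WT values of 585, 485, 509 and 440 CPM. The S1pr1 KO values were 377, 381, 372 and 413 CPM, so every S1pr1 KO library lay under every WT library. No other member had groups that did not overlap in this comparison, while 11.3% of all genes tested did, 5.18% with the knockout lower. The log2 difference was -0.39 (SE 0.10, 95% interval -0.61 to -0.17). Its edgeR p was 0.00233 unadjusted and 0.0756 adjusted, just outside the threshold. DESeq2 gave the same difference with an adjusted p of 0.0120, a test that called 6.32% of all genes. Leaving out the library labelled C3 KO 4, which is in neither group but shares the estimate of the spread, gave an edgeR adjusted p of 0.0425. Without the library labelled S1pr1 KO 2, alone or together with C3 KO 4, Abca3 did not pass the edgeR test. Over all 22 alternatives the difference stayed between -0.45 and -0.31, and the adjusted p between 0.0120 and 0.170.

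For the other members the S1pr1 KO and WT values overlapped. Lamp3 had a log2 difference of -0.02, Napsa -0.06, Slc34a2 -0.10, Etv5 -0.12 and Lpcat1 -0.01, all with edgeR adjusted p of at least 0.643. In all, 2 members had an unadjusted p under 0.05, where 18.0% of all genes did. The median of the 10 differences was -0.08, with 1 above 0, beside a median of -0.00 and 49.8% above 0 for all genes. Without the library labelled C3 KO 4 and that labelled S1pr1 KO 2 the median was -0.13. DESeq2 called 1 member and limma voom called 0, beside 4.59% of all genes for limma voom.

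**Figure D2:**
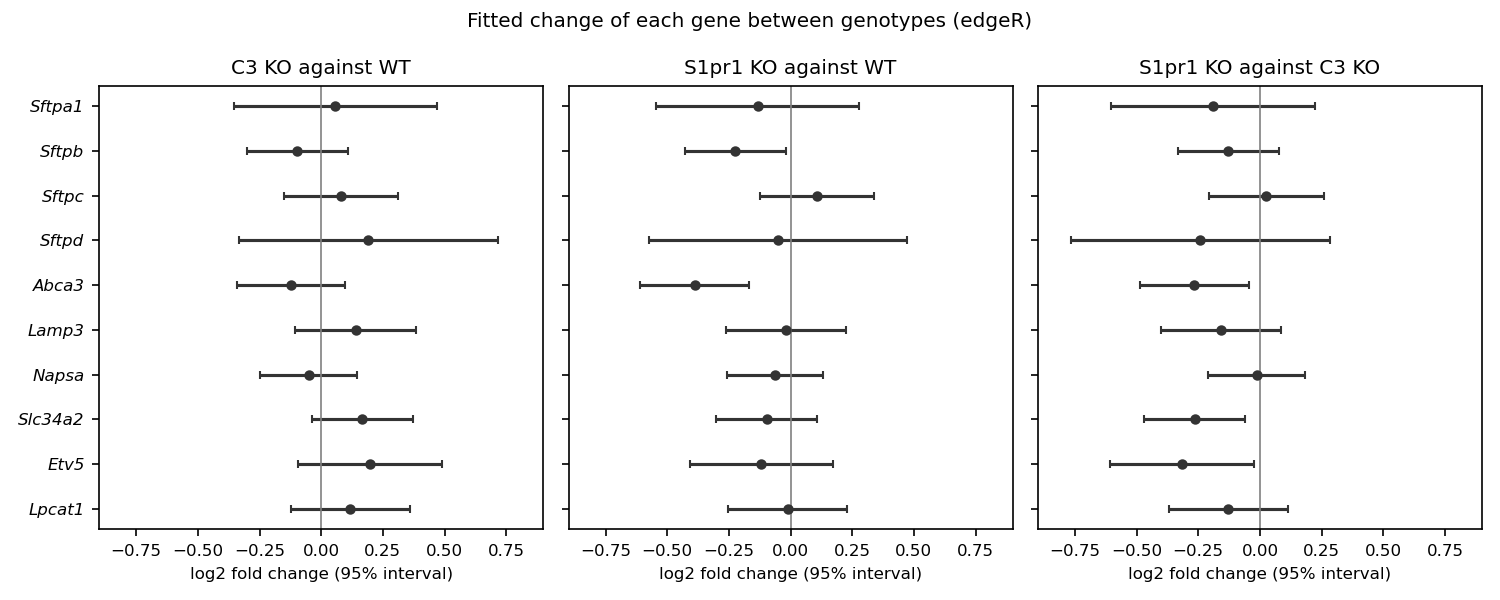
Fitted log2 fold change (horizontal axes) of each gene in the 3 comparisons, with 95% intervals from the edgeR fit. The interval of Abca3 in S1pr1 KO against WT, -0.61 to -0.17, is the one farthest from 0, and none of these values passed the adjusted test.

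Some genes of other cell types differed in the same libraries. Of 12 ciliated cell genes, 4 rose in S1pr1 KO against WT by edgeR, where 1.35% of all genes were called in either direction. The list was chosen with earlier results of these data known. Ccdc153, a ciliated cell marker, rose from 57.3 ± 11.7 to 106 ± 14.2 CPM (log2 0.89, edgeR adjusted p = 0.0295). Mlf1, Cfap43 and Ccdc113 rose by 0.78, 0.85 and 0.64 on the log2 scale. The summed ciliated level was 645 to 799 CPM in WT and 897 to 1106 CPM in S1pr1 KO.

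Of 12 endothelial genes, Gpihbp1, which carries lipoprotein lipase to the capillary wall, fell from 202 ± 22.8 to 148 ± 14.4 CPM (log2 -0.45, edgeR adjusted p = 0.0440). Of 12 leukocyte genes, Cd4 fell from 7.54 ± 1.77 to 3.53 ± 0.404 CPM (log2 -1.10, edgeR adjusted p = 0.0276). Gpihbp1 and Cd4 were each the only gene of their list called by edgeR, where 1.35% of all genes were. The leukocyte genes went both ways, with 9 below 0 and 3 above, from -1.43 to 1.02 on the log2 scale. Of 22 alternatives, the call held in 16 for Ccdc153, 14 for Mlf1, 9 for Cfap43, 10 for Ccdc113, 9 for Gpihbp1 and 15 for Cd4. The 12 endothelial genes summed to 6595 to 7337 CPM in WT and 5817 to 6566 CPM in S1pr1 KO. The leukocyte sums overlapped, at 4317 to 5733 CPM in WT and 4577 to 5421 CPM in S1pr1 KO. The 15 genes of alveolar macrophages, which clear surfactant, summed to 1213 to 1549 CPM in WT and 1002 to 1166 CPM in S1pr1 KO. Car4 is in both this list and the endothelial one, so their sums share that gene. Of the 15 macrophage genes, 0 were called by edgeR, DESeq2 or voom. An unadjusted edgeR p under 0.05 was found for 3, where 18.0% of all genes had one. The part of these cell types in the Abca3 and Sftpb values was not tested.

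Ratios of 2 genes within a library do not depend on how libraries are scaled. Of the 45 ratios between members, 10 (22.2%) did not overlap between S1pr1 KO and WT, where 12.4% of all ratios between the 2300 genes of at least 100 CPM did not. The ratios share genes and have no test. Abca3 was in 5 of them, Sftpc in 4 and Sftpb in 3. In C3 KO against WT 5 ratios (11.1%) did not overlap, beside 9.58% of all ratios, and between the knockouts 5 (11.1%), beside 6.82%.

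The ratio of Sftpb to Sftpc, the hydrophobic surfactant proteins, lay between 0.417 and 0.439 in the 4 WT libraries. It lay between 0.325 and 0.371 in S1pr1 KO, a difference of -0.33 in mean log2 ratio, and between 0.359 and 0.407 in C3 KO, a difference of -0.18. Both knockouts share the same WT libraries, and their own ranges overlapped. The WT libraries held the ratio in a narrow band although Sftpc itself ran from 9411 to 11424 CPM among them.

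The ratio of Sftpc to Abca3 was 19.4 to 24.2 in WT and 25.4 to 33.5 in S1pr1 KO, a log2 difference of 0.48. Abca3 was also lower relative to Lamp3 (-0.35), Napsa (-0.32), Slc34a2 (-0.29) and Lpcat1 (-0.39), with no overlap in any of these. In C3 KO against WT, only the ratio to Slc34a2 among these did not overlap, with a log2 difference of -0.29. All of the S1pr1 KO ranges hold the library labelled S1pr1 KO 2, whose S1pr1 level was within the WT range. Leaving out a library cannot make separate groups overlap, so the separation is no check on that library. It had the lowest S1pr1 KO ratio of Abca3 to Lamp3 (0.847), Napsa (1.44) and Slc34a2 (0.193). It had the highest of Sftpc to Abca3 (33.5), but not the lowest of Abca3 to Lpcat1.

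**Figure D3:**
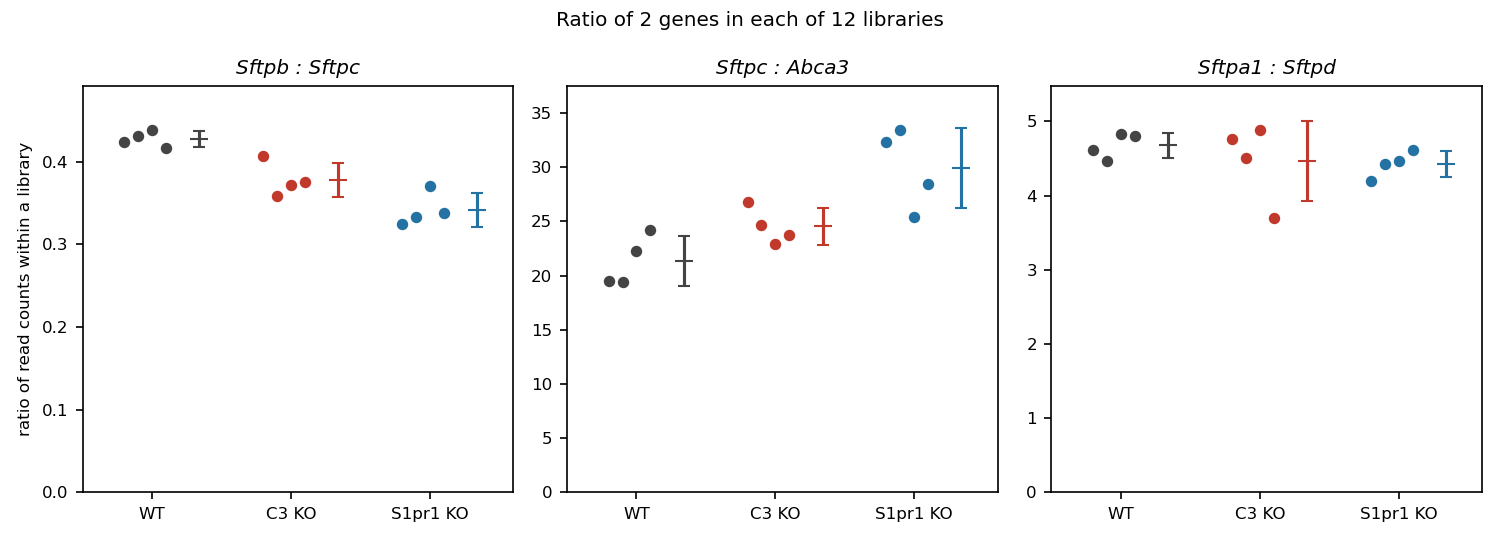
Ratio of read counts of 2 genes within each library (vertical axes, from 0), with mean ± SD beside the 4 points of each genotype. Sftpb to Sftpc is 0.417 to 0.439 in WT and 0.325 to 0.371 in S1pr1 KO, while Sftpa1 to Sftpd has 1 low C3 KO point.

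In C3 KO lungs no member passed the edgeR test, where 0.00989% of all genes did. Of the 10 members, 7 had a positive log2 difference against WT, with values between -0.12 and 0.20. The largest belonged to Etv5 at 0.20 and Sftpd at 0.19, and Slc34a2 had the lowest p. No member had an unadjusted p under 0.05, where 11.0% of all genes did, and DESeq2 and limma voom each called 0 members, beside 0.875% and 0.104% of all genes. No member had groups that did not overlap, where 6.09% of all genes did.

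Slc34a2 (ENSMUSG00000029188, chr5:53195423-53229006) had WT values of 2155, 1677, 1903 and 1856 CPM. Its C3 KO values were 2028, 1957, 2163 and 2375 CPM, with the libraries interleaved. The log2 difference was 0.17 (SE 0.094, 95% interval -0.04 to 0.37, edgeR adjusted p = 0.549).

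Etv5 (ENSMUSG00000013089, chr16:22200059-22258469) had WT values of 227, 164, 143 and 157 CPM. Its C3 KO values were 177, 215, 226 and 175 CPM. WT 1 stood above every C3 KO library and the other 3 WT libraries stood below them. The log2 difference was 0.20 (SE 0.13, 95% interval -0.09 to 0.49, edgeR adjusted p = 0.629). Leaving out 1 library gave 0.12 (without WT 3) to 0.36 (without WT 1).

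Lpcat1 (ENSMUSG00000021608, chr13:73615316-73664541) had the same high WT library, with 487, 388, 321 and 351 CPM in WT and 393, 417, 466 and 402 CPM in C3 KO. Its log2 difference was 0.12 (edgeR adjusted p = 0.754), and leaving out 1 library gave 0.04 (without WT 3) to 0.25 (without WT 1). Sftpb had a log2 difference of -0.10, Abca3 -0.12, Napsa -0.05, Sftpc 0.08 and Lamp3 0.14, with edgeR adjusted p of at least 0.700. The 95% intervals of these members do not exclude differences of either sign. The median of the 10 was 0.10, beside -0.00 for all genes, and -0.06 without the library labelled C3 KO 4 and that labelled S1pr1 KO 2.

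The collectins changed sign when 1 library was left out. Sftpd (ENSMUSG00000021795, chr14:40894171-40907106) had 599, 560 and 579 CPM in C3 KO 1 to 3, and the library labelled C3 KO 4 held 1340 CPM, beside 692, 596, 740 and 669 CPM in WT. Sftpa1 (ENSMUSG00000021789, chr14:40853739-40858409) had 2856, 2526 and 2833 CPM in C3 KO 1 to 3, and the same library held 4948 CPM, beside 3198, 2665, 3573 and 3212 CPM in WT. With all 12 libraries the log2 differences were 0.19 for Sftpd and 0.06 for Sftpa1 (edgeR adjusted p = 0.83 and 0.947). Without the library labelled C3 KO 4 they were -0.22 and -0.20 (edgeR adjusted p = 0.484 and 0.575).

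That library had 2.31 times the mean Sftpd of the other 3 C3 KO libraries and 1.81 times their mean Sftpa1. Of the 2300 genes of at least 100 CPM, 0.391% were as high or higher there by the first measure and 1.13% by the other. The other 8 members stood between 0.850 and 1.25 times the mean of the other libraries, with Sftpb at 1.17 and Sftpc at 1.19. C3, the gene its label targets, stood at 2.76 times. Chil3, an alveolar macrophage gene chosen after its values were seen, stood at 3.84 times, and the summed macrophage list ran from 1141 to 2550 CPM in C3 KO. Between the knockouts, the Sftpd difference was -0.24 with that library and 0.16 without it, and the Sftpa1 difference -0.19 and 0.07 (S1pr1 KO minus C3 KO, log2). The part of these in the Sftpa1 and Sftpd values was not tested.

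Sftpa1 and Sftpd lie 35761 bases apart on chromosome 14 (GRCm39), with the processed pseudogene Gm7920 and Mbl1, which encodes a mannose-binding collectin, between them. Mbl1 was at 2.03 to 3.92 CPM over all libraries and at 1.23 times the mean of the other 3 in the library labelled C3 KO 4.

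**Figure D4:**
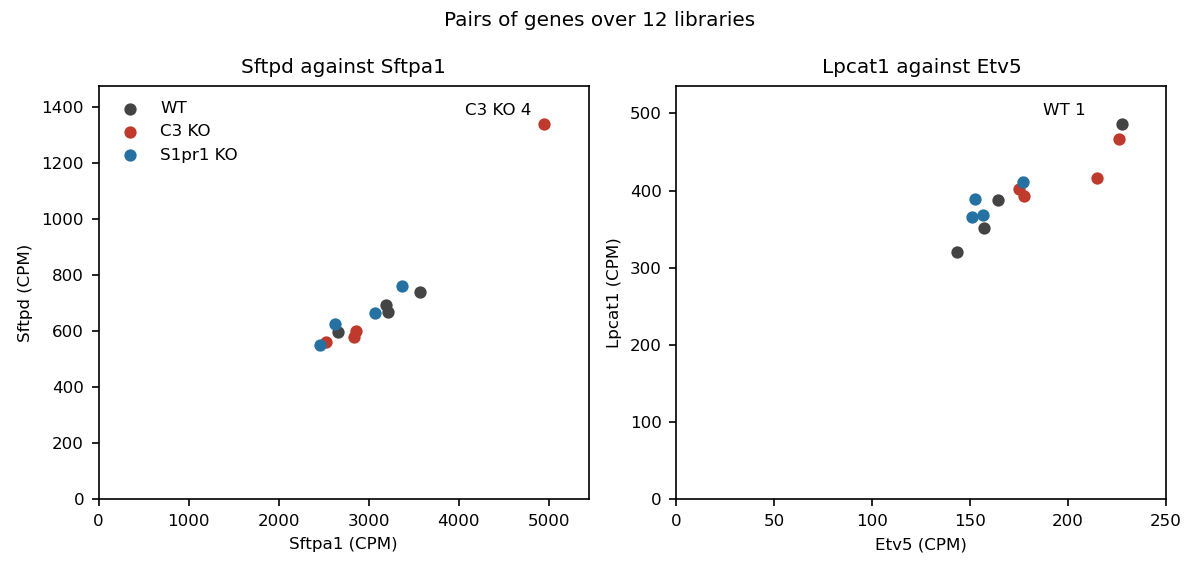
Level in CPM of Sftpd against Sftpa1 and of Lpcat1 against Etv5 (both axes from 0), with 1 point for each of 12 libraries coloured by genotype. The library labelled C3 KO 4 stands alone at 4948 and 1340 CPM in the collectin panel, while WT 1 is the highest point of the other.

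Between the knockouts, S1pr1 KO had lower values than C3 KO for 9 of the 10 members, with a median log2 difference of -0.18 beside 0.00 for all genes. Without the library labelled C3 KO 4, Sftpa1 (0.070), Sftpd (0.16) and Napsa (0.071) had positive differences. Without it and the library labelled S1pr1 KO 2, the median was -0.13. No member passed the edgeR test, and neither did any other gene, which makes the background 0%. At an unadjusted p under 0.05 there were 3 members, all lower in S1pr1 KO, where 5.46% of all genes were lower. That share counts 1 direction only, the direction of these members, unlike the 18.0% given for S1pr1 KO against WT. It is therefore smaller than a share over both directions. No member's groups were free of overlap, where 6.40% of all genes were.

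Slc34a2 had a log2 difference of -0.26 (SE 0.094), with an unadjusted edgeR p of 0.0154 and an adjusted p of 0.310. Its S1pr1 KO values were 1660, 1971, 1625 and 1841 CPM. Only the library labelled S1pr1 KO 2 reached into the C3 KO range. Abca3 had a log2 difference of -0.27 (SE 0.10), with an unadjusted edgeR p of 0.0221 and an adjusted p of 0.331. Its C3 KO values were 400, 429, 485 and 540 CPM. Etv5 had a log2 difference of -0.32 (SE 0.13), with an unadjusted edgeR p of 0.0351 and an adjusted p of 0.376. Its S1pr1 KO values were 177, 152, 151 and 157 CPM. These 3 kept their sign in every alternative run, and DESeq2 and limma voom each called 0 members. DESeq2 called 1.57% of all genes in this comparison and limma voom 0.178%.

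How the members varied among libraries of 1 genotype differed between them. The pooled SD of log2 CPM within groups was smallest for Sftpb at 0.13, Slc34a2 at 0.13 and Napsa at 0.13, and 0.15 for Sftpc and Abca3. It was 0.21 for Etv5, 0.30 for Sftpa1 and 0.38 for Sftpd. The median over genes of at least 100 CPM was 0.11, and 96.2% of those genes had a smaller SD than Sftpd. Without the library labelled C3 KO 4, also chosen after seeing the data, the SD was 0.14 for Sftpd and 0.17 for Sftpa1, with 73.4% of those genes below Sftpd, and Etv5 had the largest of the members at 0.21.

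Over the 12 libraries, some pairs of members varied together. Of the 45 pairs, 12 had an adjusted p under 0.05 for Pearson's r of log2 CPM and 11 for Spearman's rho, with 9 in both (permutation tests with 100000 resamples, two-sided, Benjamini-Hochberg over the 45 pairs). The median r was 0.51, and 0.62 for deviations from the group means. All points share library depth and the cell makeup of the lung. Pairs of other genes were not put through the same test. Whether these counts exceed those of other genes was therefore not tested.

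Sftpa1 and Sftpd, the collectins, had the closest relation, with r = 0.96 and rho = 0.94 (permutation, adjusted p = 0.000225 and 0.00225). The raw p of the first, 1e-05, is the smallest that this number of resamples gives. Without WT 3 and the library labelled C3 KO 4, which were farthest from the median of Sftpa1, r was 0.91, so the relation did not rest on them.

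Etv5 and Lpcat1 had r = 0.91 and rho = 0.91 (permutation, adjusted p = 0.000225 and 0.00315), and r = 0.79 without WT 1 and C3 KO 3. Their deviations from the group means gave r = 0.93. These genes stood apart from the rest: of the 17 pairs that hold either of them, only this one passed. Etv5 gave r = -0.17 with Sftpa1 and 0.05 with Sftpc.

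Lamp3 and Slc34a2 had r = 0.87 and rho = 0.88 (permutation, adjusted p = 0.00315 and 0.00439), and r = 0.75 without C3 KO 4 and S1pr1 KO 3. Napsa, the precursor protease, gave r = 0.84 with Sftpa1, 0.83 with Sftpb and 0.81 with Sftpd. Sftpb gave r = 0.77 with Sftpa1 and 0.73 with Abca3, and Sftpc gave 0.67 with Sftpd. Among pairs with a collectin, Lamp3 gave r = 0.71 with Sftpa1 and 0.68 with Sftpd, and Slc34a2 gave 0.69 with Sftpa1 (permutation, adjusted p = 0.0391, 0.0391 and 0.0419). These 3 did not pass for Spearman's rho, and without the library labelled C3 KO 4 r was 0.48, 0.41 and 0.46. Abca3 and Sftpc gave r = 0.11, the lowest value between Abca3 and any other member, but 0.53 for deviations from the group means. Sftpb and Sftpc likewise gave r = 0.48 over all libraries and 0.90 for those deviations.

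**Figure D5:**
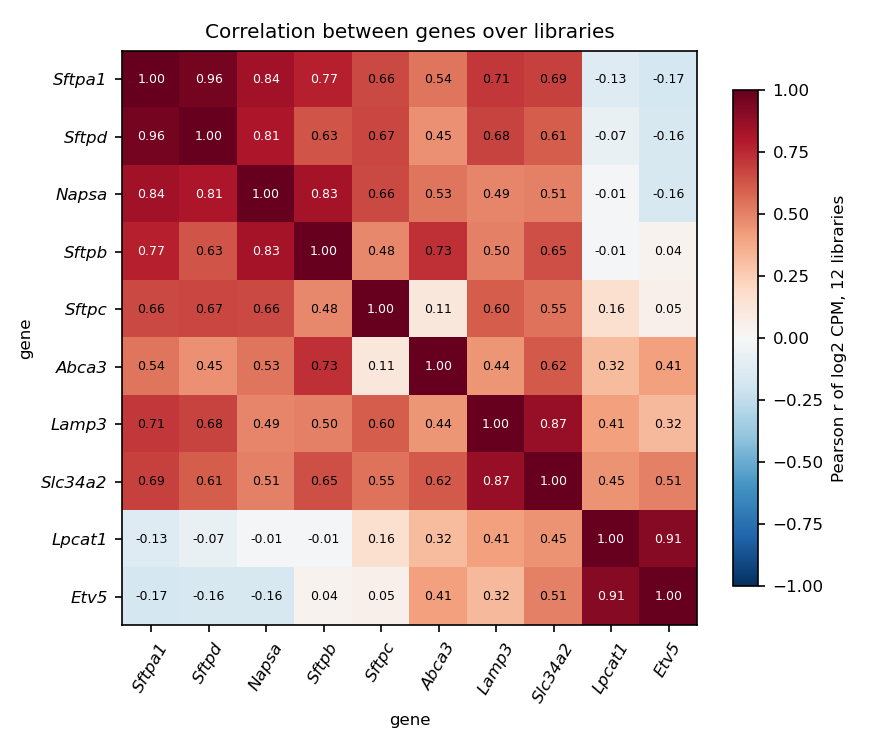
Pearson r of log2 CPM over 12 libraries for each pair of the 10 genes (both axes list the genes, and colour and numbers give r). Etv5 and Lpcat1 form a corner of their own at 0.91, and Sftpa1 and Sftpd reach 0.96.

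Genes outside the list were ranked by r with the mean of the standardised log2 CPM of the 10 members, over 12 libraries and 15574 protein coding genes, as a description with no test. The closest were Dram1 at 0.92, Tfcp2l1 at 0.91, Plin3 at 0.91, Npc1 at 0.91, Cdh16, Atp6v0d2 and Plekhb2 at 0.89 each, Klc4 at 0.89, and Ms4a8a and Ctsc at 0.88. For Slc34a2 alone they were Tfcp2l1 at 0.95, Nceh1 at 0.93 and Npc1 at 0.93. Etv5 was closest to Paqr8 at 0.93, Gnpda1 at 0.92 and H3f3b at 0.91, and Lpcat1 to Tmem164 at 0.90, Zfp729b at 0.89 and Gnpda1 at 0.88.

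The wider pathway was read from lists of genes. Their counts at an unadjusted p under 0.05 stand beside 11.0% of all genes in C3 KO against WT and 18.0% in S1pr1 KO against WT. Between the knockouts, 5.46% of all genes had such a p and were lower in S1pr1 KO. That share leaves out higher genes, and a share over both directions is not given here. The genes counted below between the knockouts were all lower in S1pr1 KO, except 1 transcription factor. Of 20 other alveolar type 2 markers, 0 passed the edgeR test in any of the 3 comparisons, and DESeq2 and limma voom also called 0. At an unadjusted p under 0.05 there were 1, 1 and 1. In S1pr1 KO against WT 11 of the 20 were below 0, with a median of -0.04. Nkd1, an inhibitor of Wnt signalling, had 254 ± 37.7 CPM in WT and 202 ± 28.8 CPM in S1pr1 KO (log2 -0.33, edgeR adjusted p = 0.221). Chil1, a chitinase-like protein, had 476 ± 62.6 CPM in WT and 645 ± 254 CPM in C3 KO (log2 0.44, edgeR adjusted p = 0.449). The library labelled C3 KO 4 held 1023 CPM of Chil1 and the other 3 held 492 to 566 CPM, and without it the log2 difference was 0.13.

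Of 15 transcription factors of these cells, 0 passed the edgeR test in any comparison, nor by DESeq2 or limma voom. Counts at an unadjusted p under 0.05 were 4 in C3 KO against WT, 0 in S1pr1 KO against WT and 3 between the knockouts. The largest difference was that of Cebpd, a C/EBP factor, at 297 ± 103 CPM in WT and 176 ± 76.9 CPM in C3 KO (log2 -0.76, edgeR adjusted p = 0.416). Nkx2-1, the lineage factor, was at 306 ± 14.7 CPM in WT, 288 ± 34.7 CPM in C3 KO and 290 ± 33.5 CPM in S1pr1 KO, with log2 differences of -0.08 and -0.08 against WT (edgeR adjusted p = 0.797 and 0.733). Foxp1, a forkhead factor, was at 144 ± 7.59 CPM in WT and 186 ± 32.3 CPM in C3 KO (log2 0.37, edgeR adjusted p = 0.327). It was the 1 transcription factor called in C3 KO once the library labelled C3 KO 4 and that labelled S1pr1 KO 2 were left out (edgeR adjusted p = 0.0341).

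The FGF pathway, which acts upstream of Etv5, was read from 13 genes, and 0 passed the edgeR test in any comparison. At an unadjusted p under 0.05 there were 2 higher and 2 lower in C3 KO against WT, 4 lower in S1pr1 KO against WT and 1 lower between the knockouts. Spry4, a feedback inhibitor of the pathway, had 66.7 ± 24.3 CPM in WT, 32.0 ± 6.34 CPM in C3 KO and 38.0 ± 7.38 CPM in S1pr1 KO. Its log2 differences were -1.06 and -0.81 (edgeR adjusted p = 0.253 and 0.111), and DESeq2 called both (adjusted p = 0.0063 and 0.0202). The comparisons share the WT libraries. Dusp6, a phosphatase that dampens ERK, had log2 differences of -0.33 and -0.33 (edgeR adjusted p = 0.403 and 0.212), and Fgf7, a ligand, had -0.28 in S1pr1 KO (edgeR adjusted p = 0.193). Limma voom called 0 of the 13.

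Among 20 genes of surfactant lipid synthesis, 0 passed by edgeR, DESeq2 or limma voom in any comparison, with 2, 2 and 1 at an unadjusted p under 0.05. Gpam, which starts glycerolipid synthesis, was at 145 ± 10.6 CPM in WT and 178 ± 20.5 CPM in C3 KO (log2 0.29, edgeR adjusted p = 0.298). Chpt1, which makes phosphatidylcholine, had a log2 difference of 0.17 in S1pr1 KO (edgeR adjusted p = 0.223).

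Among 18 genes of lamellar bodies and precursor processing, 0 passed by the same tests, with 2, 3 and 0 at an unadjusted p under 0.05. Of these 18, 14 were below 0 in S1pr1 KO against WT, with a median of -0.07. Ctsh, a protease of surfactant precursors, had 295 ± 56.5 CPM in WT and 218 ± 22.8 CPM in S1pr1 KO (log2 -0.43, edgeR adjusted p = 0.246). Atp11a, a lipid flippase, had 577 ± 18.5 CPM in WT, 695 ± 68.6 CPM in C3 KO and 672 ± 69.6 CPM in S1pr1 KO, with log2 differences of 0.27 and 0.22 (edgeR adjusted p = 0.327 and 0.195).

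Alveolar type 1 cells, which type 2 cells renew, were read from 13 genes. None passed the edgeR test in any comparison, nor by DESeq2 or limma voom, with 3, 3 and 2 at an unadjusted p under 0.05. In S1pr1 KO against WT 7 of the 13 were above 0, with a median of 0.03. Of the 3 genes there, Clic5, a chloride channel protein, had a log2 difference of 0.16 (edgeR adjusted p = 0.259). The others were lower in S1pr1 KO: Hopx had a log2 difference of -0.26 and Ager of -0.24 (edgeR adjusted p = 0.164 and 0.218). The list summed to 9211 to 9798 CPM in WT and 8383 to 10496 CPM in S1pr1 KO.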

How the data were processed

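Whole-lung RNA was sequenced in 12 libraries. The authors deposited whole-number read counts per gene and, per the file headers, FPKM of the same libraries. The submitters' processing notes name CASAVA, STAR, GRCm39 and mm39. The tool that counted reads was not given in the sources used here, nor were its strand setting and annotation. Reads of overlapping genes may have been shared. Deposited FPKM values served for levels between genes and in alternatives.

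The counts went into edgeR 4.0.16 (R 4.3.3, filterByExpr, TMM scaling, a quasi-likelihood fit of 3 group means over 12 libraries, 9 residual degrees of freedom), with Benjamini-Hochberg adjustment over 20229 genes and a threshold of 0.05. The SE was taken from the log2 value and the F statistic. CPM are counts scaled to a common TMM total, and log2 CPM has a prior count of 2. Alternatives were DESeq2 1.42.0, limma 3.58.1 (voom with sample weights, or log2(FPKM + 1) and log2(FPKM + 0.1) where 4 libraries reached 0.5 FPKM), scaling by RLE or upper quartile, filters of none or 1 CPM in 4 libraries, only the groups compared, and leaving out libraries.

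The 10 members and the 17 gene lists, members included, were chosen with earlier results of these data known. The text names the members, C3 and S1pr1, and from each list the called genes and some of the 4 of lowest p per comparison. One listed gene, Ddit3, had 2 entries, and the one with more reads was used. Within each group, every pair of libraries differed by more than sampling noise (chi-square per degree of freedom 12.4 or more).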

Additional observations from a re-analysis of the deposited data

Results flagged for a closer look

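In each group of 4 libraries, the highest or lowest value was set against its gap to the nearest other, by Dixon's criterion. Of 150 groups from 50 genes, 9 stood out, and chance alone gives about 1 in 20 groups. Of the 30 groups of surfactant and alveolar type 2 genes, 2 stood out, both in the library labelled C3 KO 4: Sftpd at 1340 CPM where the other 3 were between 560 and 599 CPM, and Sftpa1 at 4948 CPM where they were between 2526 and 2856 CPM.

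The same library was the highest of its group for C3 at 1416 CPM (the others 465 to 601 CPM), for Chil1 at 1023 CPM (492 to 566 CPM) and for Foxa1 at 63.4 CPM (40.5 to 43.6 CPM). The library labelled S1pr1 KO 2 was the highest for S1pr1 at 366 CPM (132 to 154 CPM). Chil1 was lowest in S1pr1 KO 3 at 478 CPM (531 to 537 CPM), Spry1 highest in S1pr1 KO 1 at 93.1 CPM (64.1 to 64.8 CPM), and Mlf1 lowest in WT 1 at 6.55 CPM (10.3 to 10.5 CPM).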

How the results depend on the processing

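For the 10 members in 3 comparisons, 22 alternatives gave 660 values, of which 629 kept their direction and their side of the threshold, 2 (both Abca3 in S1pr1 KO against WT, by DESeq2 and without C3 KO 4) passed it, and 29 changed sign in 11 results, none beyond 0.22 in size. In C3 KO against WT, Sftpa1 was -0.083 and Sftpd -0.059 by limma voom, -0.20 and -0.22 without C3 KO 4 and S1pr1 KO 2, and leaving out 1 library gave -0.20 to 0.17 for Sftpa1, -0.22 to 0.32 for Sftpd and -0.13 to 0.020 for Napsa. In S1pr1 KO against WT, leaving out 1 library gave -0.14 to 0.021 for Sftpd, -0.12 to 0.04 for Lamp3, -0.20 to 0.04 for Etv5 and -0.092 to 0.12 for Lpcat1, which was 0.0016 and 0.0017 on log2(FPKM + 1) and log2(FPKM + 0.1) and 0.0041 with upper-quartile scaling. Between the knockouts, leaving out 1 library gave -0.31 to 0.070 for Sftpa1, -0.031 to 0.11 for Sftpc, -0.38 to 0.16 for Sftpd and -0.084 to 0.071 for Napsa. There Sftpc was -0.0093 by limma voom, and without C3 KO 4 and S1pr1 KO 2 Sftpd was 0.080 and Napsa 0.039. Values at single libraries left out were -0.0080 for Sftpa1 (WT 2), 0.045, 0.037 and 0.041 for Lamp3 (WT 1, S1pr1 KO 1, S1pr1 KO 3), 0.011 and 0.013 for Lpcat1 (S1pr1 KO 3, S1pr1 KO 4), -0.0042 and -0.011 for Sftpc (C3 KO 1, C3 KO 2) and 0.026 for Napsa (S1pr1 KO 3). The cause was not tested. Over all genes, calls in C3 KO against WT numbered 2, with 177 by DESeq2, 21 by limma voom, 6 and 6 by the FPKM fits, 1 with only the groups compared, 31 without C3 KO 4 and S1pr1 KO 2, and 1 to 32 leaving out 1 library. In S1pr1 KO against WT they numbered 274, with 1279 by DESeq2, 928 by limma voom, 171 and 150 by the FPKM fits, 473 without those libraries, and 2 (without S1pr1 KO 4) to 571 (without C3 KO 4) leaving out 1. Between the knockouts they numbered 0, with 317 by DESeq2, 36 by limma voom, 7 and 6 by the FPKM fits, 15 with no filter, 3 without those libraries and 0 to 13 leaving out 1. The count of members called in S1pr1 KO against WT was 1 by DESeq2 and 0 to 1 leaving out 1 library. The 12 correlated pairs became 7 without C3 KO 4 and S1pr1 KO 2, and 7 (without WT 1, WT 4, C3 KO 4 or S1pr1 KO 3) to 14 (without WT 3) leaving out 1 library. No paired analysis was possible because sample numbers in the labels run on through all groups and pair no libraries. With 4 libraries a group, the widest 95% interval of a member reached 0.77 on the log2 scale.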

Other observations

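Genes that fold and check proteins in the endoplasmic reticulum, where surfactant precursors are made, had values above 0 in 12 of 14 cases in C3 KO against WT, with a median of 0.15 beside -0.00 for all genes. Over all genes 49.8% were above 0. None of the 14 passed the edgeR test and 5 had an unadjusted p under 0.05, where 11.0% of all genes did, with 0 called by DESeq2 or limma voom. Hspa5, the main chaperone, was at 397 ± 40.2 CPM in WT and 556 ± 108 CPM in C3 KO (log2 0.48, edgeR adjusted p = 0.393), and Dnajc3, its partner, at 192 ± 11.5 and 240 ± 18.3 CPM (log2 0.32, edgeR adjusted p = 0.314). Both had C3 KO libraries that all lay above the WT libraries, where 6.09% of all genes had groups that did not overlap in either direction. They were named for their low p among the 14.

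Of 7 other collectins and ficolins, 5 were tested, and 0 passed by edgeR, DESeq2 or limma voom in any comparison, with 1, 1 and 0 at an unadjusted p under 0.05. The share of all genes was 11.0% in C3 KO against WT and 18.0% in S1pr1 KO against WT. Mbl1 was at 2.42 ± 0.30 CPM in WT, 3.36 ± 0.414 CPM in C3 KO and 3.21 ± 0.378 CPM in S1pr1 KO (log2 0.47 and 0.41, edgeR adjusted p = 0.331 and 0.182). Among 9 tested genes of cells between the type 2 and type 1 states, 0 passed by edgeR in S1pr1 KO against WT, with 4 at an unadjusted p under 0.05. Of these 4, 2 were higher and 2 lower, where 18.0% of all genes had such a p in either direction. The median log2 difference of the list was 0.03. Cldn4, a claudin, was at 4.94 ± 0.93 CPM in WT and 7.39 ± 1.39 CPM in S1pr1 KO (log2 0.58, edgeR adjusted p = 0.102, DESeq2 adjusted p = 0.0263). Cdkn1a, an inhibitor of the cell cycle, was at 101 ± 25.7 and 54.4 ± 22.8 CPM (log2 -0.90, edgeR adjusted p = 0.135, and 0.0179 without C3 KO 4 and S1pr1 KO 2). Of 10 club cell genes, 0 passed by edgeR, while Gabrp was called by DESeq2 and limma voom (log2 0.50, edgeR adjusted p = 0.0823).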
